A study of Mus musculus with 4 samples.

Results

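The Hox genes of the 4 mammalian clusters were read through 48 probe sets, chosen because the platform annotation gives each of them a single symbol made of Hox, a cluster letter and a number. These 48, of 45037 probe sets other than controls, stand for 33 of the 18193 genes that the array reads with a single symbol: 9 genes in the Hoxa cluster (16 probe sets), 9 in Hoxb (11), 7 in Hoxc (11) and 8 in Hoxd (10). Messenger RNA was measured on Affymetrix arrays in immortalised mouse embryonic fibroblasts (MEFs) that were all PA1 loxP/loxP, a conditional allele, and had all been selected with puromycin. The PA1 -/- cells (knockout, 2 arrays) had received a retrovirus carrying Cre, an enzyme that cuts out DNA flanked by loxP sites. The PA1 +/+ cells (wild type, 2 arrays) had received the retroviral vector alone. The labels number the arrays of each genotype 1 and 2 and do not say what a number shares or whether the samples were separate cultures, so p-values reflect the spread among these 4 samples alone, part of which may be technical. The embryonic stage, the body region the fibroblasts came from and the number of founding lines are unstated in the sources used here.

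Hox genes encode homeodomain transcription factors that give cells their position along the head-to-tail axis. Within a cluster they lie in a row in the order of their paralogue numbers, with low numbers active towards the head and high numbers towards the tail and the limb ends, and fibroblasts keep such a pattern in culture. Polycomb proteins keep silent members off, and the trithorax group, which includes the KMT2 histone methyltransferases, keeps active members on. PA1, read here as Pagr1a, is a subunit of the KMT2C and KMT2D complexes.

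Upstream sequences of 4 genes are shown because their genes stand for the patterns described below: Hoxa2 and Hoxa5 for the genotype comparison, and Hoxa7 and Hoxc4 for the comparison of the numbers. Each is the 250 bases before the start that the RefSeq table of GRCm38.p6 gives, 5′ to 3′ on the gene's strand. That table held 19 of the 33 genes. Capitals mark matches, on either strand, to the PBX-HOX composite TGATNNAT, the CDX motif TTTATG, the CCAAT box CCAAT or the GC box GGGCGG, and no matches overlapped in these windows.
Hoxa2 (chr6:52164832-52165081, minus strand): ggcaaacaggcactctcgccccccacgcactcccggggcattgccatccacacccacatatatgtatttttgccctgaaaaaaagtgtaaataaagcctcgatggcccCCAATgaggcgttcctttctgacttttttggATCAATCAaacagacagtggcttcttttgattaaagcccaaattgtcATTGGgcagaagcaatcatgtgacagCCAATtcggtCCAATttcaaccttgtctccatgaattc
Hoxa5 (chr6:52204588-52204837, minus strand): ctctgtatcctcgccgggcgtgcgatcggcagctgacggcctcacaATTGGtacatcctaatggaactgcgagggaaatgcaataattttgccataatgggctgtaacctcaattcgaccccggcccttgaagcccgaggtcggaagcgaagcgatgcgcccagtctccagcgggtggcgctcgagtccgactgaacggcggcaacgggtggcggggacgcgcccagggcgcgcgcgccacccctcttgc
Hoxa7 (chr6:52218574-52218823, minus strand): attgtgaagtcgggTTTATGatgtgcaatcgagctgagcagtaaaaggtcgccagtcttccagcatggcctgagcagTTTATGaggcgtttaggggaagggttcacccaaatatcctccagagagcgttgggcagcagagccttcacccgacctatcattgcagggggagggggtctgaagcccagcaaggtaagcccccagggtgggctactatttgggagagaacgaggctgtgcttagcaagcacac
Hoxc4 (chr15:103034145-103034394, plus strand): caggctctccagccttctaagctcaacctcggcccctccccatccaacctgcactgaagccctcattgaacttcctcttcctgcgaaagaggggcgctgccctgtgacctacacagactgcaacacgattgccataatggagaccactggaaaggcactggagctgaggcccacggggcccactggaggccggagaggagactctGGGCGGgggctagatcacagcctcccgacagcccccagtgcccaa
The Hoxa2 window held 1 PBX-HOX match and 4 CCAAT boxes, the Hoxa5 window 1 CCAAT box, the Hoxa7 window 2 CDX matches and the Hoxc4 window 1 GC box. Among all 32851 promoter windows of the table, 7.68% held the PBX-HOX motif, 10.8% the CDX motif, 33.8% a CCAAT box and 32.7% a GC box. The Hoxa5 window was rich in CpG, with 28 such pairs, against 6 in the Hoxa2 window, 7 in Hoxa7, 8 in Hoxc4 and a median of 6 over all windows.

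Array medians lay between 63.2 and 66.4 signal units, and precision is limited by having 4 arrays. Pagr1a read 113 and 108 on the knockout arrays numbered 2 and 1, against 1389 and 1340.3 on the wild-type arrays (log2 difference -3.51, SE 0.249). Even this difference did not pass limma across all probe sets (adjusted p = 0.876), and whether its probes lie in the deleted stretch is unknown here. All 4 arrays carried fibroblast markers, with 9 of the 10 listed genes above the filter on dim signals, which goes by the mean over the arrays. Dcn, among the 9, read 37.9 and 41.4 in knockout at numbers 2 and 1, against 103 and 138 in wild type. Of 4 leukocyte markers, Ptprc read 3.83 to 16.8, while Cd14 (418 to 1416), Cd68 (133 to 224) and Csf1r (91.3 to 175) were above the filter. Of 4 endothelial markers, Kdr (48.2 to 82.5) was above the filter, and Pecam1 (3.36 to 10.2), Cdh5 and Tek were not. Of 4 neural markers, Nes (1089 to 1586), Tubb3 (122 to 963) and Sox10 (68.5 to 107) were above the filter, and Gfap (7.31 to 53.2) was not. The part of these markers in the Hox differences was not tested. Knockout and wild-type arrays that share a number correlated at 0.977 and 0.971 in log2 signal. The pair of knockout arrays correlated at 0.920 and the pair of wild-type arrays at 0.918. Each comparison below is therefore given within numbers and between numbers. The 20th percentile of all signals, 9.96, serves below as a floor, under which a probe set is in the dimmest 20%.

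The 4 clusters differed in how many members could be measured. Signals of 21 probe sets from 14 genes lay in the upper 50% of the array by mean level, which corresponds to a signal near 62.8, and these were tested: 11 in Hoxa, 7 in Hoxb, 3 in Hoxc and 0 in Hoxd. Of the 21, 5 were below that level on both arrays numbered 2 and thus passed through the arrays numbered 1 (Hoxb6, Hoxb9, Hoxc8 and a pair for Hoxc6). The other 27 probe sets were too dim to enter the main test and are described by their signals. In Hoxd, whose genes pattern limbs and the hind end of the trunk, all 10 probe sets stayed at or below 84.9 on every array, and those of Hoxd10 and Hoxd11 stayed below 9.96 on all 4. The brightest Hoxd member, Hoxd8, read 18.8 in knockout and 48 in wild type at number 2, against 78.3 and 84.9 at number 1. In the other clusters the genes under the filter were Hoxa10, Hoxa13, Hoxb1, Hoxb5, Hoxb7, Hoxb13, Hoxc4, Hoxc5, Hoxc9, Hoxc10 and Hoxc13. Hoxa11 (65.8 to 106) was above it.

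**Figure D1:**
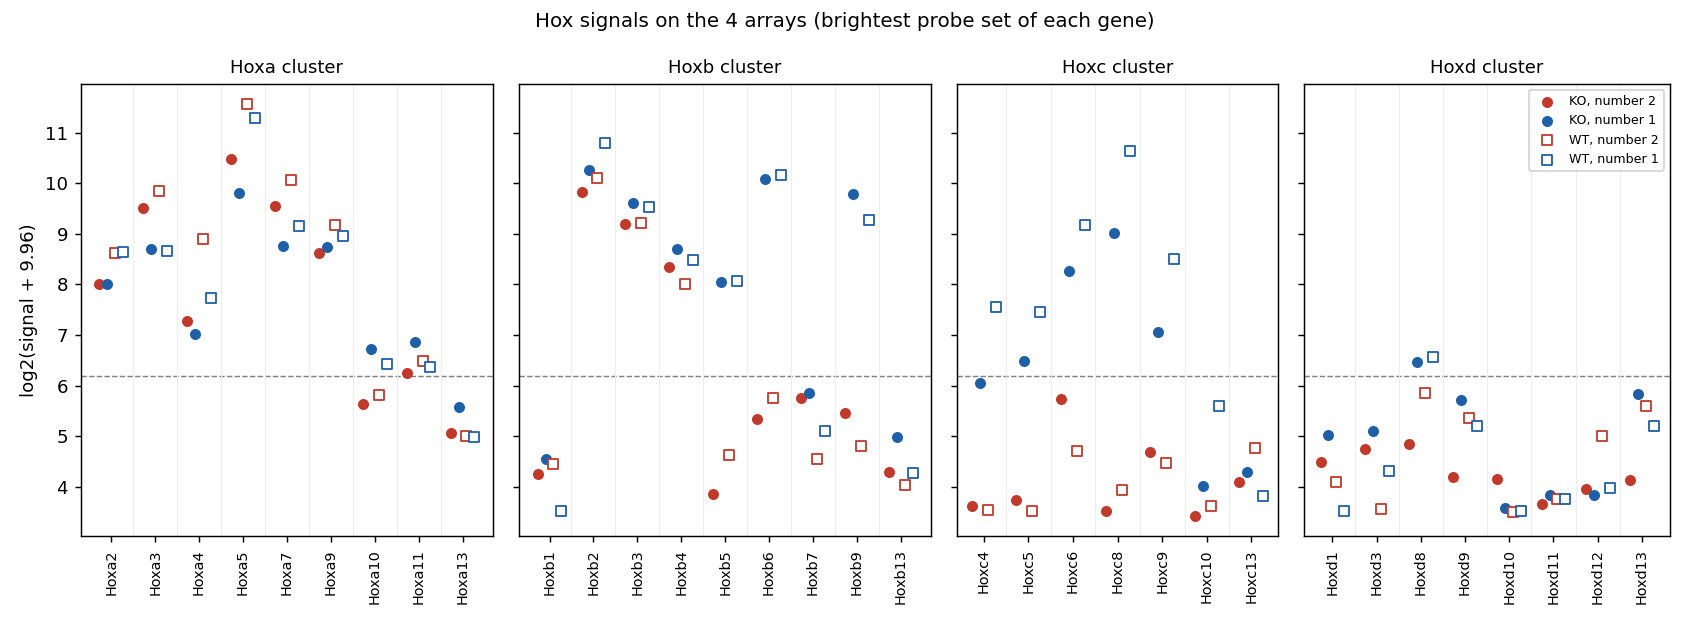
Signal of each Hox gene's brightest probe set on the 4 arrays, as log2(signal + 9.96), by cluster and paralogue number. Filled circles are knockout and open squares wild type, red is number 2 and blue number 1, and the dashed line is the filter at a signal near 62.8. In Hoxb and Hoxc the red and blue symbols of Hoxb5, Hoxb6, Hoxb9 and Hoxc4 to Hoxc9 stand far apart, while most symbols of Hoxd lie below the line.

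The arrays numbered 2 lacked much of the signal that those numbered 1 had for the trunk-level Hoxb and Hoxc genes, in both genotypes. Number 2 was at least 4-fold lower than number 1 in both genotypes for 9 of the 48 probe sets, on the log2(signal + 9.96) scale. They read Hoxb5, Hoxb6, Hoxb9, Hoxc4, Hoxc5, Hoxc6, Hoxc8 and Hoxc9, and 0.895% of all probe sets did the same. None of the 48 was 4-fold higher in both genotypes (0.497% of all probe sets). Fewer cells with a transcript and less of it per cell cannot be told apart in such bulk RNA. Nor can a difference between cultures and one between RNA preparations or hybridisations be told apart here.

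Hoxb6, which is active in the thoracic trunk, read 30.3 in knockout and 43.7 in wild type at number 2, against 1075.5 and 1140.1 at number 1. Its log2 difference, number 2 minus number 1, was -4.59 (SE 0.255, limma adjusted p = 0.000162). Hoxb9, which helps pattern the ribs, read 33.9 and 17.8 at number 2, against 879.9 and 609 at number 1 (-4.41, SE 0.324, adjusted p = 0.000424). For both genes every array numbered 2 was more than 10-fold below every array numbered 1. Both genes passed the filter only through the arrays numbered 1. With all 45037 probe sets tested, the limma adjusted p was 0.00429 for Hoxb6 and 0.00886 for Hoxb9. Hoxb5, known for its part in the enteric nervous system, read 4.47 in knockout and 14.6 in wild type at number 2, against 256 and 258 at number 1. Hoxb5 was under the filter by its mean, and with all 45037 probe sets tested its difference was -3.82 (adjusted p = 0.013).

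The front of the same cluster behaved otherwise. Hoxb2, a hindbrain regulator, read 897 in knockout and 1093 in wild type at number 2, against 1222 and 1773 at number 1. Hoxb3 read 575 and 582 at number 2, against 778 and 727 at number 1, and Hoxb4, known in blood stem cells, read 317 and 246 against 408 and 347. By these brightest probe sets all 3 had their number 2 values below their number 1 values without overlap, as 27.4% of tested probe sets did. The second probe sets of Hoxb3 (174 and 156 against 215 and 158) and Hoxb4 (169 and 116 against 173 and 165) overlapped. The brightest probe sets' differences of -0.57, -0.37 and -0.42 did not pass the test (adjusted p = 0.165, 0.268 and 0.2996). That of Hoxb2 passed when knockout array 1 was left out. Number 1 was then the wild-type array alone, so that fit mixes number with genotype. Hoxb7, between Hoxb6 and Hoxb9, was read by a dim probe set at 43.9 and 13.5 at number 2, against 48 and 24.5 at number 1. A probe set shared by Hoxb8 and Hoxb7, outside the 48, was lower at number 2. It read 26.7 in knockout and 74.3 in wild type there, against 533 and 508 at number 1, and cannot tell these genes apart.

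Hoxc8, which acts in brachial motor neurons and the thoracic skeleton, had the largest difference of the 48. It read 1.56 in knockout and 5.31 in wild type at number 2, below the floor, against 507 and 1580.3 at number 1 (log2 difference -6.10, SE 0.497, adjusted p = 0.000608). Hoxc6, a thoracic gene, read 43.1 and 16.2 at number 2, against 299 and 570.0 at number 1 by its brightest probe set (-3.51, SE 0.430, adjusted p = 0.0028). A second Hoxc6 probe set read 17.5 and 44.1 against 209.6 and 501 (-3.12, adjusted p = 0.00679), and the third, dim one 5.74 and 17.3 against 24.0 and 69.9. All 3 Hoxc6 probe sets were thus lower on both arrays numbered 2. Hoxc8 and the brighter Hoxc6 pair also passed the filter only through the arrays numbered 1. With all probe sets tested, the limma adjusted p was 0.0104 for Hoxc8, and 0.0270 and 0.0452 for that pair.

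The neighbours on either side of Hoxc6 and Hoxc8 were dimmer and moved with them. Hoxc4 read 2.37 in knockout and 1.67 in wild type at number 2, against 56.4 and 177 at number 1. Hoxc5 read 3.29 and 1.53 at number 2, against 79.8 and 166 at number 1, and Hoxc9, a regulator of thoracic motor neuron identity, read 15.8 and 12 against 124 and 354. These 3 genes missed the filter, and with all probe sets tested their differences of -3.22, -3.35 and -3.21 passed (adjusted p = 0.0444, 0.0242 and 0.042). Of the other Hoxc5 probe sets, one read 4.22 and 5.50 at number 2 against 39.5 and 26.4 at number 1, and one stayed between 2.16 and 3.87 on all arrays. Hoxc10, a lumbar gene, read 0.745 and 2.34 at number 2, against 6.13 and 38.6 at number 1, so its knockout value at number 1 was also under the floor. Hoxc13, known for its role in hair and nails, stayed between 4.15 and 17.4 with overlapping numbers.

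In the Hoxa cluster 6 of 16 probe sets had both number 2 values above both number 1 values, against 26.1% of all probe sets. These were all those of Hoxa3, a dim one of Hoxa4 and that of Hoxa7. In 1, for Hoxa10, both number 2 values lay below (23.4% of all probe sets). Hoxa3, which patterns pharyngeal organs, was higher at number 2, with 724 in knockout and 909 in wild type against 407 and 396 at number 1 (log2 difference 0.998, SE 0.222, adjusted p = 0.0289). A second Hoxa3 probe set read 389 and 608 against 174 and 161 (1.49, SE 0.277, adjusted p = 0.0151), and 2 dimmer ones were higher at number 2 too, by 0.32 and 1.298. Without the filter both Hoxa3 calls ended (adjusted p = 0.059 and 0.0527), and both also ended when wild-type array 2 was left out (0.183 and 0.0795). Leaving out knockout array 2 ended the first call as well (0.072). The RefSeq span of Hoxa3 contains Hoxa4 and Hoxa5, and its brightest probe set is of a kind (s_at) that can match several transcripts.

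Hoxa7 read 742 in knockout and 1064 in wild type at number 2, against 424 and 561 at number 1, so the numbers did not overlap. Its difference of 0.85 did not pass (adjusted p = 0.0741). It passed, as did that of Hoxa5, when wild-type array 1 was left out, but number 1 was then the knockout array alone. Such a fit mixes number with genotype. Hoxa2, of the hindbrain and the second branchial arch, was level, with 248 and 386 at number 2 against 246 and 390.4 at number 1. Hoxa9 (0.05), Hoxa11 (-0.25), Hoxa5 (0.48) and Hoxa4 (0.72) had overlapping numbers. Hoxa10, a regulator of the lumbar and uterine regions, was dim and lower at number 2, with 39.5 and 46.1 against 95.3 and 76.2.

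Counted over the tested members, 7 of 21 passed between the numbers, 2 higher and 5 lower, against 11.7% of the 22519 probe sets tested (6.03% higher, 5.68% lower). Since the 5 lower ones entered through the arrays numbered 1, the count over all 48 is the plainer one. Without a filter 9 of 48 passed, against 2.95% of all 45037 probe sets, and all 9, from 8 genes, were lower (1.63% of all). Both number 2 values lay below both number 1 values for 19 of the 48 (23.4% of all) and above them for 6 (26.1%), and those 6 were the Hoxa ones counted above. The median difference of the 48 was -0.29, beside 0.03 over all probe sets. By cluster the medians were 0.28 in Hoxa, -0.42 in Hoxb, -3.12 in Hoxc and -0.52 in Hoxd.

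**Figure D2:**
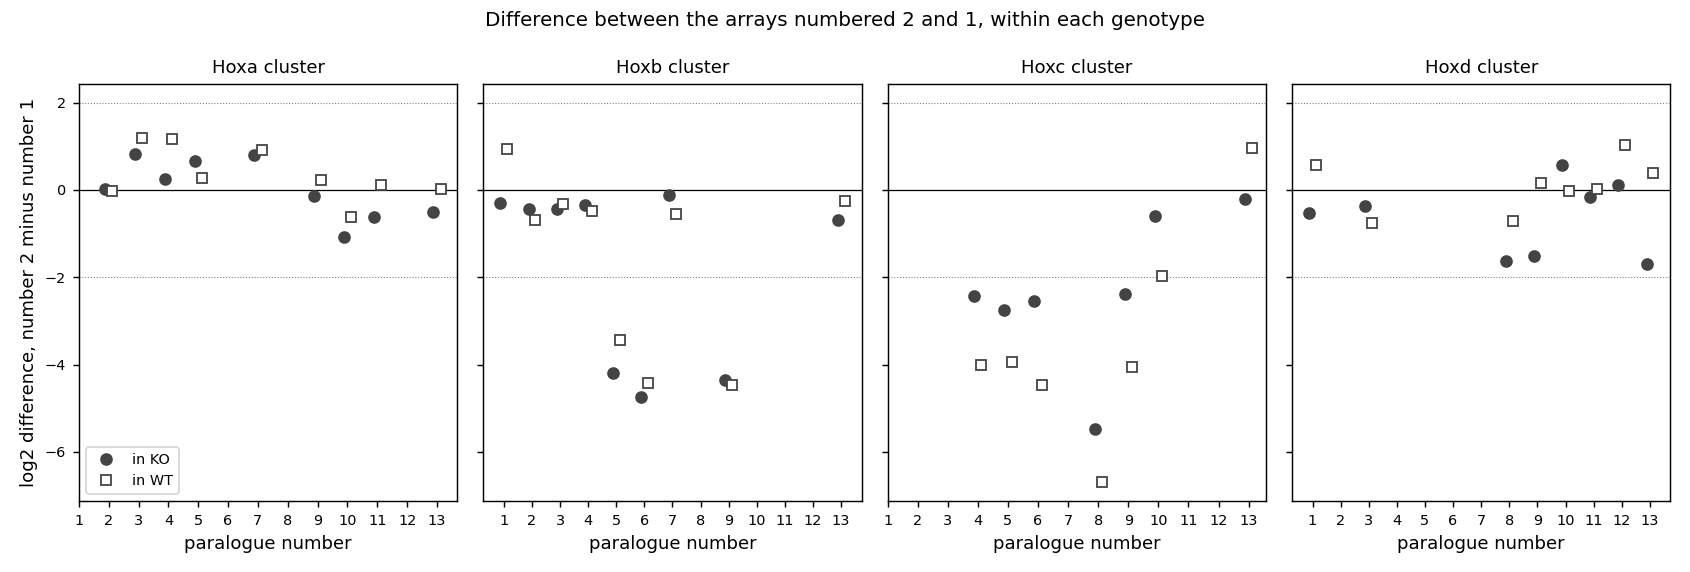
Log2 difference, number 2 minus number 1, of each gene's brightest probe set by paralogue number, in knockout (filled circles) and wild type (open squares). Dotted lines mark 4-fold. Hoxb5, Hoxb6, Hoxb9 and Hoxc4 to Hoxc9 lie below the lower line in both genotypes, and no gene lies above the upper one.

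Paralogue number alone did not order these differences. In group 4 the difference was 0.72 for Hoxa4, -0.42 for Hoxb4 and -3.22 for Hoxc4. In group 5 it was 0.48 for Hoxa5, -3.82 for Hoxb5 and -3.35 for Hoxc5. In group 9 Hoxa9 was at 0.05, Hoxb9 at -4.41, Hoxc9 at -3.21 and Hoxd9 at -0.69. Members of one paralogue group thus stood far apart. The genes read from Hoxb5 to Hoxb9 and from Hoxc4 to Hoxc9 stood together, except Hoxb7 by its own dim probe set. The same differences taken within each genotype use different arrays. In group 6, Hoxb6 differed by -4.75 in knockout and -4.42 in wild type, and Hoxc6 by -2.54 and -4.47.

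**Figure D3:**
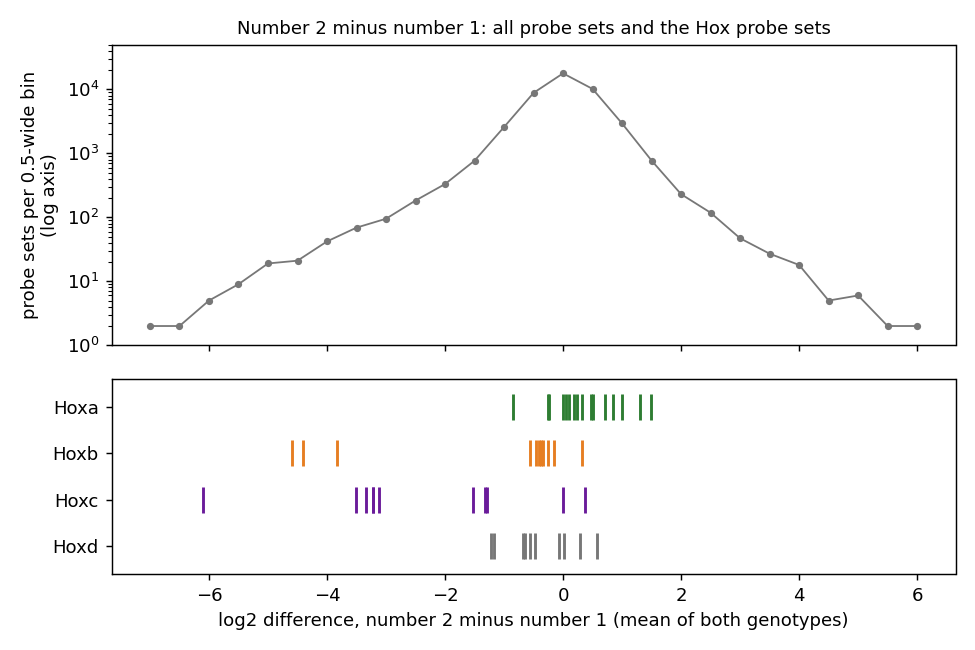
Top, number of probe sets (log axis) by log2 difference, number 2 minus number 1, over all 45037. Below, a tick for each of the 48 Hox probe sets by cluster. The bulk of probe sets lies near 0, and 3 Hoxb ticks lie between -4.59 and -3.82 and 6 Hoxc ticks at or below -3.12.

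Other genes differed between the numbers as well, and their part in the Hox pattern was not tested. Krt18, a keratin gene, read 27.6 in knockout and 11.4 in wild type at number 2, against 266 and 298 at number 1. Cdh1, the epithelial cadherin, read 1.46 and 3.37 against 24.5 and 159.6. The other 3 epithelial markers, Epcam, Krt5 and Krt8, did not show this, and the summed signal of the 5 was 318 and 302 at number 2, against 482 and 698 at number 1. Among fibroblast markers S100a4 was higher at number 2 (1.59, adjusted p = 0.0086) and Col1a1 lower (-1.18, adjusted p = 0.0143), with a summed list signal of 86321 and 105979 against 77805 and 85369. Of 4 skeletal muscle markers, Acta1 was higher at number 2 (2.30, adjusted p = 0.00112), while Myod1 and Myog read 4.09 to 29.8 on all arrays. Both Myod1 and Myog were lower at number 2 in each genotype. Des read 62.0 and 72.7 at number 2, against 88.5 and 47.0 at number 1, so it overlapped. The summed muscle list was at 868 and 846, against 296 and 240.3. Most of that sum was Acta1, with 768 and 762 against 159 and 138.

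The partners and regulators of Hox proteins were read from lists chosen for their function. Between the numbers 11.7% of all 22519 tested probe sets passed, and the count of each list below stands beside that share. Of the 8 tested TALE cofactors, homeodomain proteins that bind DNA beside Hox proteins, 2 were lower at number 2 and 0 higher. Pknox2 read 15.0 in knockout and 25.8 in wild type at number 2, against 208 and 299 at number 1 (-3.12, SE 0.325, adjusted p = 0.00148). Both its number 2 values lay under the filter signal near 62.8, so it entered the test only through the arrays numbered 1. Pbx3 read 757 and 748, against 1399 and 1560.0 (-0.96, adjusted p = 0.0206). Of 21 tested Polycomb genes 1 passed, the PRC2 cofactor gene Aebp2 (0.89, adjusted p = 0.0178), and 0 of 14 trithorax and PA1 complex genes did, where the demethylase gene Kdm6b had the largest difference (-0.81, adjusted p = 0.0742).

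Upstream of Hox genes, retinoic acid and the Cdx factors set their domains in the embryo. Of 5 tested axial regulators 1 passed between the numbers, Cyp26b1, which breaks down retinoic acid. It read 261 in knockout and 543 in wild type at number 2, against 134 and 136 at number 1 (1.42, adjusted p = 0.0387). Cdx1 and Cdx4 were below 9.96 on all arrays. Cdx2, under the filter, read 34.7 in knockout and 22.6 in wild type at number 2, against 18.6 and 7.31 at number 1. Among genes that flank the clusters, Hibadh, beyond the tail end of Hoxa, passed with 0.83 (adjusted p = 0.0212), and 0 of the other 6 tested flanking genes did. These were Skap2, Ttll6, Smug1, Calcoco1, Mtx2 and Lnpk.

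Between the genotypes no Hox probe set passed in the fit with genotype as the only term. In that fit 0 of 21 tested members reached an adjusted p under 0.05, against 0% of all 22519, and 1 of 21, Hoxa5, had an unadjusted limma p under 0.05, against 1.95%. With 2 arrays on each side, the smallest p an exact test allows is 0.333, and this limit holds for the comparison of the numbers too. The genotype fit counts the difference between numbers as spread. That spread was large for the Hoxb and Hoxc genes above, with standard errors of 2.12 for Hoxb6 and 2.82 for Hoxc8. A failure to pass does not show that the genotypes were alike.

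Averaged over the numbers, Hoxa5 and Hoxa4 had the lowest knockout values relative to wild type among the 48 probe sets. Hoxa5, which acts in the lung and the cervical to thoracic skeleton, read 1427 and 892 on the knockout arrays numbered 2 and 1, against 3026 and 2486 on the wild-type arrays. It was the only one of the 48 at least 2-fold lower at both numbers, with -1.08 at number 2 and -1.47 at number 1, and 0.850% of all probe sets were. The genotype fit gave -1.27 (SE 0.314, unadjusted p = 0.0108, limma adjusted p = 0.9998). A second Hoxa5 probe set, of the x_at kind that shares probes with other transcripts, read 317 and 294 in knockout against 450.1 and 424 in wild type (-0.50).

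Hoxa4, active in the cervical region, read 145 and 119.9 in knockout at numbers 2 and 1, against 468 and 202 in wild type, and values below keep that order of numbers. The difference was -1.62 at number 2 and -0.70 at number 1, and both knockout values lay below both wild-type values. A dim second probe set read 59.1 and 31.8 against 59.1 and 46.3. Hoxa2 read 248 and 246 in knockout, against 386 and 390.4 in wild type, with nearly equal differences of -0.62 and -0.64. Hoxa9 read 382 and 421, against 572 and 486 (-0.39), while its second probe set overlapped (-0.06).

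Genotypes overlapped for Hoxa7, Hoxa3, Hoxa10 and Hoxa11. Hoxa7 read 742 and 424 in knockout, against 1064 and 561 in wild type, lower at each number by 0.51 and 0.39. Hoxa3 read 724 and 407, against 909 and 396, and Hoxa11, which shapes the forearm and uterus, read 65.8 and 106, against 79.3 and 73.0. Hoxa13, a limb end gene under the filter, had both knockout values above both wild-type values, at 23.3 and 37.5 against 22.1 and 21.5, by 0.05 at number 2 and 0.59 at number 1.

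Tested Hoxb genes differed in both directions, by less than 2-fold at each number. Hoxb9 read 33.9 and 879.9 in knockout, against 17.8 and 609 in wild type, higher by 0.66 at number 2 and 0.52 at number 1. Hoxb4 was higher by 0.35 and 0.23, and Hoxb2 lower by 0.28 and 0.53. Hoxb6 differed by -0.41 and -0.08, and Hoxb3 by -0.02 and 0.10. None of these 5 genes separated the genotypes by its brightest probe set. Second probe sets of Hoxb3 (0.29) and Hoxb4 (0.29) did, with knockout above wild type. So did 2 dim genes under the filter. Hoxb7 read 43.9 and 48 in knockout, against 13.5 and 24.5 in wild type, higher by 1.20 at number 2 and 0.75 at number 1. Hoxb13 read 9.67 and 21.4, against 6.36 and 9.36. Hoxb1 overlapped, at 9.12 and 13.5 in knockout against 11.8 and 1.49 in wild type.

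Hoxd members were dim in both genotypes and none was tested. Knockout values lay above wild-type values for Hoxd3, at 16.9 and 24.6 against 1.81 and 9.82, and for Hoxd1, at 12.4 and 22.4 against 6.96 and 1.501. The same held for Hoxd10, below the floor on every array. Hoxd12 had them below, at 5.48 and 4.39 against 22.1 and 5.73. The other 6 Hoxd probe sets, for Hoxd8, Hoxd9, Hoxd11 and Hoxd13, overlapped.

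Most Hoxc genes had signal only at number 1. There the knockout array was lower than the wild-type array for 9 of the 10 probe sets of Hoxc4 to Hoxc10, which read 6 genes. For 6 of the 10 it was at least 2-fold lower. Among all 45037 probe sets, 21771 were lower in knockout at number 1. Hoxc13, under the floor on both arrays there, was higher in knockout (0.47). Hoxc8 read 507 in knockout against 1580.3 in wild type (-1.62), Hoxc9 124 against 354 (-1.44) and Hoxc4 56.4 against 177 (-1.49). Hoxc10 read 6.13 against 38.6 (-1.59), and the 3 Hoxc6 probe sets differed by -0.91, -1.22 and -1.23. Over all 45037 probe sets, 4.95% were at least 2-fold lower at number 1. Of all 48 Hox probe sets, 7 were, and 6 were so at number 2, against 4.9%. This is 1 array against 1, so it has no replicate check. At number 2 the same 10 probe sets lay between 0.745 and 44.1 in both genotypes, and their differences had no common direction, with 1.02 and -0.97 for the brightest Hoxc6 pair. Whether the genotype difference of Hoxc genes depends on the number could not be tested with 1 array per cell of the design.

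**Figure D4:**
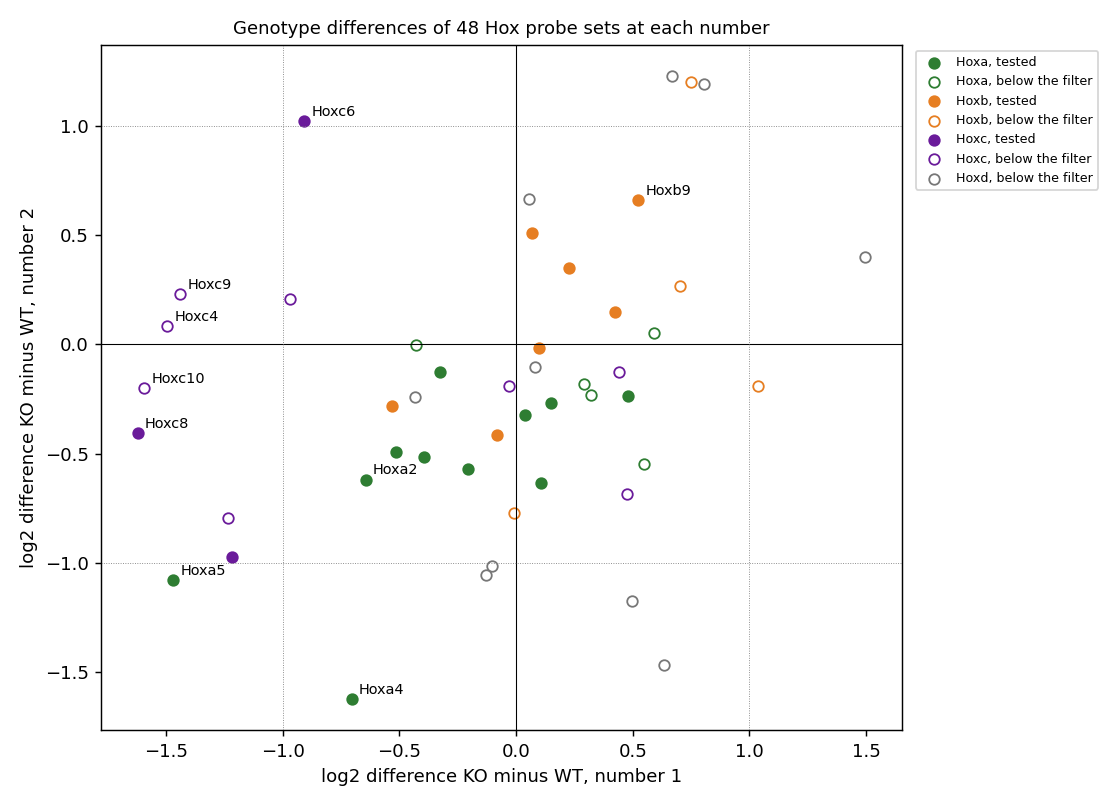
Log2 difference, knockout minus wild type, of the 48 Hox probe sets at number 1 (horizontal) and number 2 (vertical), coloured by cluster. Filled points were tested, open ones were below the filter, and dotted lines mark 2-fold. Hoxa5 is the point beyond 2-fold lower at both numbers, and Hoxc4, Hoxc8, Hoxc9 and Hoxc10 lie far left near 0 on the vertical axis.

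Over the tested members the median genotype difference was -0.25, with 14 of 21 below 0, beside a median of 0.02 over all tested probe sets. Of the 21, 5 had both knockout values below both wild-type values (12.3% of all tested) and 2 had them above (15.0%). Over all 48 these counts were 7 below and 8 above, against 14.1% and 15.3% of all probe sets, shares near the background. Leaving out 1 array, so that the genotypes no longer held the same numbers, moved the median to -0.047 (knockout 2 left out), -0.06 (wild type 1) or -0.45 (knockout 1). Within numbers 2 and 1 it was -0.32 and -0.20.

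Of the related lists, 0 genes passed between genotypes. The median was -0.11 for 8 TALE cofactors, 0.15 for 21 Polycomb genes and 0.25 for 14 trithorax and PA1 complex genes. Leading differences were those of Phc2 (0.62), a PRC1 subunit gene, Paxip1 (0.44), which encodes the PA1 partner PTIP, Pknox2 (-0.51) and Gdf11 (0.58), a ligand that promotes tail-level Hox genes. Skap2, which flanks Hoxa on the head side, differed by -0.50. Fibroblast markers were below 0 for 9 of 9 tested genes, with a median of -0.40, and their part in the Hox differences was not tested. Pdgfra, the largest of them, read 210 and 134 in knockout, against 357 and 1515 in wild type.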

How the data were processed

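Biotin-labelled total RNA of 4 samples was read on 1 array each, per the labels. The values used are intensities on a linear scale, as deposited in a single table, for which the submitters' processing notes name MAS5 with no version or scaling target. Trimmed array means were nearly equal (498), so each array appears globally scaled, and differences are relative to its average.

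After removal of 64 controls, 45037 probe sets remained, 34945 of them with 1 symbol. Signals were taken as log2(signal + 9.96), which understates changes of dim genes. The upper 50% by mean were tested with limma 3.58.1 in R 4.3.3 (eBayes with an intensity trend, 2-sided, Benjamini-Hochberg over 22519 probe sets, threshold 0.05), once with genotype and once with the replicate number as the only term (2 residual degrees of freedom each). The fits were run on simulated data with known changes. Every probe set there had the same random spread, unlike the measured signals, so the p-values above stay unchecked. A gene was named through its brightest probe set, with others where signs differed, following the rule that every tested Hox gene, every Hox gene 2-fold different between genotypes at both numbers and every one 4-fold different between numbers in both genotypes is given. Related lists name their largest difference. The members and lists were chosen with earlier results of these data known. Alternatives were other normalizations (quantile, median, cyclic loess), pseudocounts, filters, variance models, a replicate block and leaving out each array. Promoters came from RefSeq (GRCm38.p6). Probe sets with several symbols were left out. Figures used matplotlib 3.10.9.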

Additional observations from a re-analysis of the deposited data

How the results depend on the processing

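The 5 falls between numbers (Hoxb6, Hoxb9, Hoxc8 and both Hoxc6 probe sets) passed under every alternative that tested them, but none of them was in the upper 30% of probe sets, and Hoxc8 missed the filter with a pseudocount of 1.

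Between genotypes, 0 probe sets passed in all fits but the replicate block, robust and untrended variance models included, with which 447 passed, 2 of them Hox (Hoxa5, adjusted p = 0.00317, and Hoxa4, 0.0401). The deviations of same-numbered arrays from their genotype means correlated at 0.805, but with 2 pairs and no stated origin the numbers are not known to pair the samples. Between numbers, 6341 passed with genotype as a term beside the number (the same replicate block), 1327 without a filter, 1750 with the upper 30% and 1301 (knockout 2 left out) to 3042 (wild type 1 left out) when 1 array was left out, with 1329 when wild type 2 was. With that term 9 of 21 Hox probe sets passed, against 6341 of all 22519. These were the 7 of the main fit, Hoxa7 (limma adjusted p = 0.0059) and Hoxb2 (0.033). With the upper 30%, 1 of 9 Hox probe sets passed, against 1750 of 13511. The Hox median between numbers was -0.29 without a filter, 0.049 with the upper 30%, -0.31 by genes and -0.29 to -0.13 when 1 array was left out. Between genotypes it was -0.41 with the upper 30% and -0.45 to -0.047 when 1 array was left out. Probe sets 2-fold lower in knockout within number 2 were 6 without a filter and 1 with the upper 30%, against 2, and within number 1 they were 7 and 1, against 3. Hoxb3 turned to -0.019 with quantile and -0.025 with cyclic loess normalization, and the brightest Hoxc6 probe set to -0.19 with a pseudocount at the median, both between genotypes. The causes were not tested, and dim signals limit all Hoxd members.

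Leaving out 1 array unbalances number and genotype, and signs then turned for differences that had not passed. Between genotypes the ranges were -0.18 to 0.43 for Hoxa11, -0.73 to 0.45 and -1.19 to 0.67 for Hoxa3, -0.91 to 0.0016 for Hoxa7, -0.26 to 0.14 for the second Hoxa9 probe set and -0.17 to 0.25 for Hoxb3. They were -2.63 to 2.13 for Hoxb6, -1.65 to 2.83 for Hoxb9, -2.18 to 2.29 and -2.72 to 0.52 for Hoxc6 and -4.36 to 2.34 for Hoxc8. Between numbers they were -0.33 to 0.32 for Hoxa2, -0.094 to 1.53 for Hoxa4, -0.26 to 1.21 and -0.16 to 0.35 for Hoxa5, -0.24 to 0.33 for Hoxa9 and -0.36 to 0.058 for the second Hoxb3 probe set.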

Other observations

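Of 8 probe sets that carry Hox names but stand outside the 48, 4 were lower at number 2 in both genotypes without overlap. Among all probe sets 23.4% were. One shared by Hoxb8 and Hoxb7 read 26.7 in knockout and 74.3 in wild type at number 2, against 533 and 508 at number 1. One for Hoxb5os, antisense to Hoxb5, read 5.60 and 5.37 at number 2, against 56.1 and 53.0 at number 1. A probe set shared by Hoxd4 and Hoxd3 read 3.08 and 3.597, against 15.7 and 16.2. One for Hoxd3os1 read 1.68 and 1.19, against 16.0 and 27.1. The second Hoxd3os1 probe set read 22.7 and 39.0 at number 2, against 25.1 and 3.25 at number 1, and the other one shared by Hoxd4 and Hoxd3 read 6.76 and 30.3, against 9.67 and 12.4, so in wild type both were higher at number 2. Those for Hoxa11os stayed at or below 27.9 on all arrays and overlapped or were under 9.96.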
